A study of Mus musculus with 8 samples.

Results

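The genes described here are 10 transporters of the mouse, 8 of the GLUT family and 2 of the SGLT family. The GLUT genes are Slc2a1, Slc2a2, Slc2a4, Slc2a5, Slc2a8, Slc2a9, Slc2a12 and Slc2a13, and the SGLT genes are Slc5a1 and Slc5a2. The 10 stand among 18782 genes with a probe set of exactly 1 symbol. All 10 were on the array, each with 1 such probe set. The data came from 8 one-colour Affymetrix arrays of the distal convoluted tubule (DCT), a segment that reabsorbs salt downstream of the loop of Henle. The 4 TBC1D4-deficient arrays (ko in the titles) and the 4 wild-type arrays came from male C57/Bl6 mice aged 8 weeks. Animals of both genotypes carried PV-EGFP, a transgene that drives EGFP from the parvalbumin promoter, and tubule pieces with fluorescence were picked out by COPAS, an instrument that sorts large particles. The parvalbumin promoter is active in the early DCT, so the gate fixes which tubules were arrayed. The labels do not say whether each array had its own animal, and the p-values therefore reflect only how far these samples vary, which may be technical.

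GLUT proteins let hexoses move down their gradient across a membrane, whereas SGLT proteins use the sodium gradient to carry glucose uphill. In the kidney this division of labour reclaims filtered glucose in the proximal tubule: SGLT2 (Slc5a2) takes it up across the luminal membrane of the early segment, SGLT1 (Slc5a1) in the late segment, and GLUT2 (Slc2a2) releases it across the basolateral membrane to the blood. GLUT4 (Slc2a4) is the insulin-regulated transporter of muscle and fat, held inside the cell in part by TBC1D4, a Rab GTPase-activating protein. The comparison between genotypes asks whether any transporter gene of the DCT changes when TBC1D4 is missing. A preceding question is which of these transporters vary with proximal tubule markers over the arrays and which do not.

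The table holds no detection call, so the mean log2 intensity of 992 olfactory receptor probe sets, genes that tubules mostly do not use, served as a guide to background, with a 95th percentile of 2.50. All 10 transporters averaged above it, with Slc2a5 and Slc2a13 closest to it. All 12 DCT markers measured lay above it too, and their summed intensity was 14482 to 14813 in TBC1D4-deficient arrays and 14418 to 14897 in wild-type arrays. Proximal tubule markers did not stay as level. They were read as the mean of Lrp2 (megalin, an endocytic receptor) and Slc34a1 (a sodium phosphate cotransporter), with each gene set to a mean of 0 over the arrays. This marker level stood at -1.0, 0.31, 0.063 and 0.023 in TBC1D4-deficient replicates 1 to 4 and -0.43, -0.25, 0.65 and 0.63 in wild-type replicates 1 to 4, a range of 1.66 on the log2 scale. Tbc1d4 itself read 2.21 to 2.72 on the log2 scale in TBC1D4-deficient arrays, against 6.58 to 6.94 in wild-type arrays (log2 difference -4.27, limma adjusted p = 6.35e-08).

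Start regions of the transporters were taken from RefSeq (build GRCm38.p6), 250 bases before to 50 bases after the annotated start, and 8 of the 10 genes were matched. Those of Slc2a2, which followed the proximal tubule markers in the values below, and of Slc2a1, which did not, are printed as a contrast. Both lie on the plus strand, at chr3:28697653-28697952 and chr4:119108495-119108794. Capitals mark matches to TATAAA (the TATA box) or to GGGCGG (the GC box, which reads CCGCCC on the other strand).
Slc2a2: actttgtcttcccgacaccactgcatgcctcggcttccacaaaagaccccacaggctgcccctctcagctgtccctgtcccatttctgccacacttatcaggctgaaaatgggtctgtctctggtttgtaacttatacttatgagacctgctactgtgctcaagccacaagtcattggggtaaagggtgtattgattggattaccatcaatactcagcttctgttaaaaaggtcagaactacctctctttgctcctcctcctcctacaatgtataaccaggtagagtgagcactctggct
Slc2a1: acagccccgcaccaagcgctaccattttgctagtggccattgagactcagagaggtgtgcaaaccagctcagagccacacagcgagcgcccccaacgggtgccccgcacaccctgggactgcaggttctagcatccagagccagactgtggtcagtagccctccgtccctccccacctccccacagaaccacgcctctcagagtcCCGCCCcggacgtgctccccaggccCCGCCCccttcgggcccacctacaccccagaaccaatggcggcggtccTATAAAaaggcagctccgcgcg
The Slc2a2 window holds 48% G and C and no match to either motif, and the Slc2a1 window holds 65.3% G and C, 1 TATAAA after the annotated start and 2 GC boxes before it. Of 32851 such windows, 13.6% hold TATAAA and 35.7% hold GGGCGG on either strand. Among the 8 matched transporters, the GC box was found in 3 (Slc2a1, Slc2a5 and Slc2a13) and TATAAA in 1. The window matched for Slc2a9 (minus strand, chr5:38483336-38483635) lies inside the annotated gene, which reaches to 38503147, and not at that end of it. Both strands were also searched for GTTAAT (a half-site of HNF1, a transcription factor of the proximal tubule), the longer HNF1 form GTTAATNAT, which contains the half-site, and CAAAGTCCA (HNF4). These letters occurred in 7.1%, 0.801% and 0.475% of all windows and in 0 of the 8 transporter windows. Slc5a2 and Slc2a4 had no matched window and were not searched. Of the transporters that followed the proximal tubule markers, the search therefore covered Slc2a2 only.

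Slc5a2 and Slc2a2, the luminal uptake and basolateral exit steps of the early proximal tubule, moved with the proximal tubule markers over the arrays, and 6 of the other transporters stayed nearly level. The relation was measured as a slope, the log2 change of a gene per log2 unit of the Lrp2 and Slc34a1 mean, with genotype in the limma model and p-values adjusted over all probe sets with a symbol. A slope of 1 means that the gene changed as much as the markers did. A slope above 0 past the threshold of 0.05 was found for 2 of the 10 transporters, beside 1.13% of all probe sets, and a slope below 0 past the threshold for 0 of 10, beside 0.00868%.

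Slc5a2 (SGLT2, probe set 10557975, gene on chromosome 7) had log2 intensities of 4.04, 5.00, 5.28 and 5.47 in TBC1D4-deficient replicates 1 to 4 and of 4.74, 5.00, 5.61 and 5.76 in wild-type replicates 1 to 4. The array poorest in proximal tubule markers, TBC1D4-deficient replicate 1, was the lowest, and the 2 richest, wild-type replicates 3 and 4, were the highest, a 3.29-fold range. In bulk tubules, fewer cells of a type and less RNA per cell cannot be told apart. The slope of Slc5a2 was 0.89 (95% interval 0.57 to 1.21, limma adjusted p = 0.0128). The slope was 0.94 over the TBC1D4-deficient arrays alone and 0.84 over the wild-type arrays alone. The sample descriptions open with numbers of unstated meaning, and within the arrays numbered 5 to 8 and 9 to 12 the slope was 0.59 (limma adjusted p = 0.454) and 0.92 (limma adjusted p = 0.0341). It no longer passed once TBC1D4-deficient replicate 1 was left out (0.73, limma adjusted p = 0.266), nor without wild-type replicate 1 (0.88, limma adjusted p = 0.0763), and the slope stayed above 0 in all 29 alternative settings and passed in 22 of them.

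Slc2a2 (GLUT2, probe set 10491171, chromosome 3) read 3.81, 4.77, 4.40 and 4.54 in TBC1D4-deficient replicates 1 to 4 and 4.27, 3.62, 5.17 and 4.86 in wild-type replicates 1 to 4 on the same log2 scale. Here wild-type replicate 2 was the lowest and TBC1D4-deficient replicate 1 the next, and wild-type replicates 3 and 4 were again the highest, a 2.91-fold range. The slope was 0.85 (0.48 to 1.22, limma adjusted p = 0.0405). Over the TBC1D4-deficient and the wild-type arrays alone it was 0.69 and 1.01, and within the arrays numbered 5 to 8 and 9 to 12 it was 1.57 (limma adjusted p = 0.0571) and 0.66 (limma adjusted p = 0.0174). The call lay close to the threshold and depended on each of TBC1D4-deficient replicates 1 to 4 and wild-type replicates 3 and 4, with slopes of 0.75 to 1.02 when one of these was left out. The slope stayed above 0 in all 29 settings, from 0.52 to 1.57, and passed in 12 of them.

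**Figure D1:**
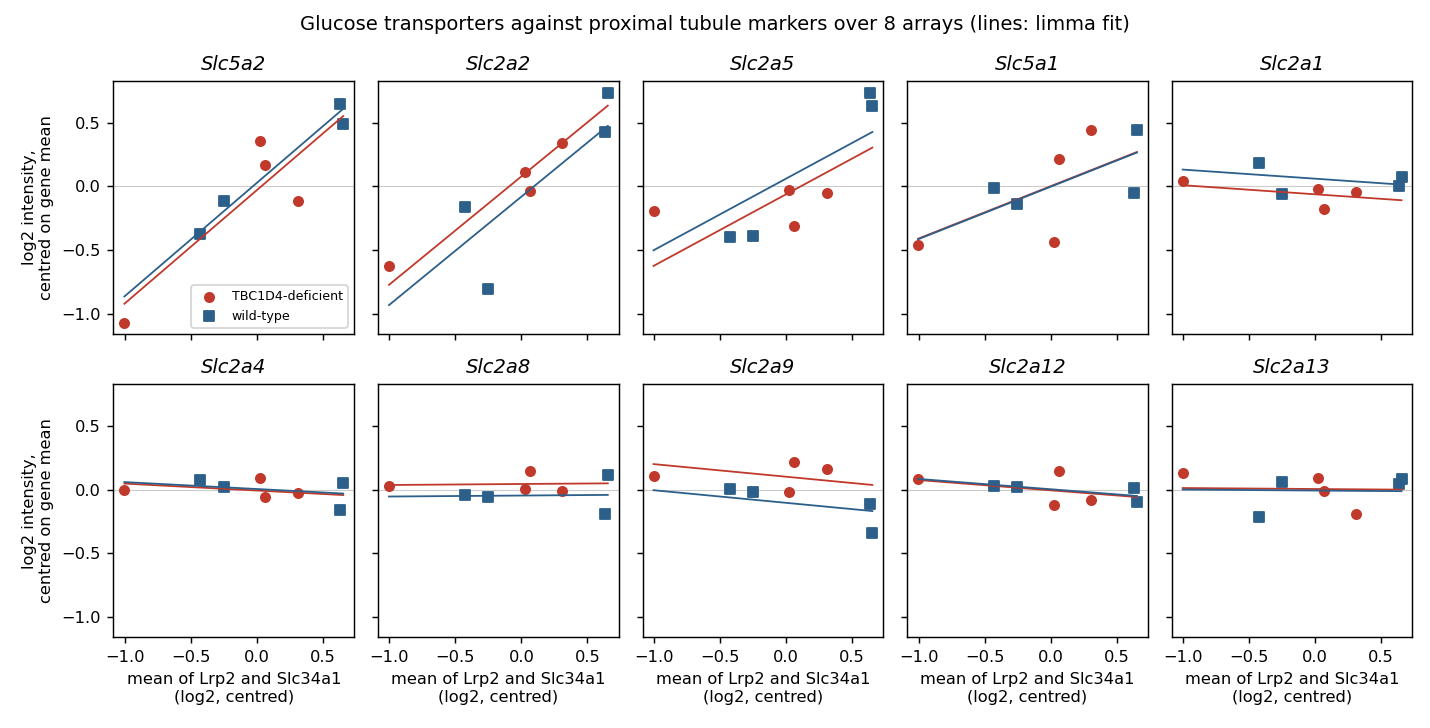
Log2 intensity of each transporter, centred on its mean over 8 arrays (vertical axis), against the centred log2 mean of Lrp2 and Slc34a1 (horizontal axis). Circles are TBC1D4-deficient arrays, squares wild-type arrays, and lines the limma fit with 1 slope for both genotypes. Slc5a2 and Slc2a2 climb with slopes of 0.89 and 0.85, while the points of Slc2a1, Slc2a4, Slc2a8, Slc2a9, Slc2a12 and Slc2a13 run nearly flat.

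Slc2a5 (GLUT5, probe set 10510516, chromosome 4), a fructose transporter, and Slc5a1 (SGLT1, probe set 10521038, chromosome 5) had slopes above 0 that did not pass the threshold. Slc2a5 had log2 intensities of 3.29, 3.42, 3.16 and 3.44 in TBC1D4-deficient replicates 1 to 4 and of 3.08, 3.09, 4.11 and 4.22 in wild-type replicates 1 to 4. Only wild-type replicates 3 and 4, the arrays richest in proximal tubule markers, stood apart, and the other 6 arrays lay between 3.08 and 3.44. The slope over all arrays was 0.56 (0.15 to 0.97, limma adjusted p = 0.441). Without TBC1D4-deficient replicate 1 it was 1.04 and passed (limma adjusted p = 0.00691). It was 0.063 over the TBC1D4-deficient arrays alone and 1.08 over the wild-type arrays alone, where it passed (limma adjusted p = 0.0175). In all it passed in 3 of 29 settings, the third being without the 2 arrays farthest from the median marker mean (1.08, limma adjusted p = 0.0425). The slopes of the genotypes had a difference of -1.01 (-1.41 to -0.62), TBC1D4-deficient minus wild-type, that did not pass when tested as an interaction (limma adjusted p = 0.424). That test was passed by 0 of the 10 transporters, beside 0.00434% of all probe sets.

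Slc5a1 had log2 intensities of 4.54, 5.44, 5.21 and 4.56 in TBC1D4-deficient replicates 1 to 4 and of 4.99, 4.86, 5.45 and 4.95 in wild-type replicates 1 to 4. Its order over the arrays was not that of Slc5a2: TBC1D4-deficient replicate 4 was among the lowest for Slc5a1 and among the higher ones for Slc5a2. The slope was 0.41 (0.033 to 0.79, limma adjusted p = 0.67), lower than the slope of Slc5a2 with overlapping intervals, and the difference between these slopes was not tested. Slc5a1 was also fitted on the mean of 7 intercalated cell markers, which ranged over 0.75, with a slope of 0.81 (0.18 to 1.45, limma adjusted p = 0.981). That interval was not the only one above 0. On the mean of endothelial markers the slope of Slc5a1 was 2.17 (0.73 to 3.61, limma adjusted p = 0.757). On thick ascending limb markers it was 2.08 (0.066 to 4.09, limma adjusted p = 0.517). On a longer proximal tubule list it was 0.40 (0.0037 to 0.80, limma adjusted p = 0.723). None of these relations of Slc5a1 passed the threshold.

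The late proximal tubule was read by a short list of 4 measured genes, of which 1, the amino acid transporter Slc7a13, had a slope on Lrp2 and Slc34a1 past the threshold. Fitted on the mean of that late list, Slc2a5 had a slope of 1.27 (0.73 to 1.82, limma adjusted p = 0.0409), Slc5a2 of 1.57 (limma adjusted p = 0.0503) and Slc2a2 of 1.48 (limma adjusted p = 0.125), so 1 of the 10 passed above 0, beside 1.15% of all probe sets. The late list correlated with the mean of Lrp2 and Slc34a1 at r = 0.94 over the 8 arrays, and early and late proximal tubule cannot be told apart here. A longer list of 19 other proximal tubule genes called 2 of the 10, Slc5a2 and Slc2a2, beside 1.16%. That list correlated with the mean of Lrp2 and Slc34a1 at r = 0.997, so it is nearly the same measure and no separate test. The means of 9 lists for other cells called 0 of the 10: DCT, thick ascending limb, principal cells, intercalated cells, endothelium, podocytes, blood and immune cells, fibroblasts and smooth muscle, and fat and muscle. Of all probe sets, 0.378% were called above 0 on the thick ascending limb list, 0.013% on the intercalated cell list and 0 on the other 7. Some of these lists varied with Lrp2 and Slc34a1: thick ascending limb (r = 0.915), fibroblast and smooth muscle (0.804) and endothelium (0.721). On the thick ascending limb list the slope was 4.43 (2.50 to 6.35) for Slc5a2 and 4.01 (1.67 to 6.35) for Slc2a2. On the fibroblast and smooth muscle list it was 4.66 (2.44 to 6.87) for Slc5a2 and 3.74 (0.75 to 6.73) for Slc2a2. On the endothelium list it was 3.28 (1.18 to 5.38) for Slc5a2 and 3.15 (0.96 to 5.34) for Slc2a2. These intervals lay above 0, but none of these slopes passed the threshold. The part of these lists in the slopes on Lrp2 and Slc34a1 was not tested. In the thick ascending limb list 1 of 7 genes passed on Lrp2 and Slc34a1, the claudin Cldn10, which the proximal tubule also expresses (slope 0.97, limma adjusted p = 0.000744). The median slope of that list was 0.095. Cldn16 had a slope of 0.27 (0.0025 to 0.53, limma adjusted p = 0.739) and Slc12a1 of 0.11 (-0.18 to 0.39). Nos1 stood at 0.095, Umod (uromodulin, made by that segment) at -0.013, Kcnj1 at -0.017 and Ptger3 at -0.18.

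The remaining 6 of the 8 transporters that did not pass, set apart here by their slopes, had slopes of -0.099 to 0.0077, with 95% intervals that reached no higher than 0.21. This is a description of the values that sorted them and no test. The median slope over all probe sets with a symbol was -0.0035, so a slope near 0 is not particular to these transporters. Slc2a1 (GLUT1, probe set 10507594, chromosome 4), the widely expressed transporter of basal glucose uptake, had log2 intensities of 9.16, 9.08, 8.94 and 9.10 in TBC1D4-deficient replicates 1 to 4 and of 9.31, 9.06, 9.20 and 9.12 in wild-type replicates 1 to 4. All 8 values lay within a 1.29-fold range, and the slope was -0.071 (-0.24 to 0.096). Slc2a4 (GLUT4, probe set 10387743, chromosome 11) read 7.71, 7.69, 7.65 and 7.80 in TBC1D4-deficient replicates 1 to 4 and 7.79, 7.73, 7.76 and 7.55 in wild-type replicates 1 to 4. Its range of 1.19-fold was the narrowest of the 10, and its slope was -0.054 (-0.21 to 0.11).

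GLUT4 is best known from fat and skeletal muscle, so markers of those cells were read beside it. Of 8 such markers, 3 averaged above the 95th percentile of the olfactory receptor probe sets. The 3 were Fabp4, a fatty acid carrier of fat cells, at 2.63 to 2.83 in TBC1D4-deficient arrays and 2.81 to 2.98 in wild-type arrays, and the muscle genes Ckm and Acta1. Ckm (creatine kinase) read 2.98 to 3.16 in TBC1D4-deficient arrays and 2.90 to 3.28 in wild-type arrays, and Acta1 (skeletal actin) 3.41 to 3.64 in TBC1D4-deficient arrays and 3.41 to 3.49 in wild-type arrays. The groups overlapped for all 3. Adipoq (adiponectin, a fat cell hormone) read 1.84 to 1.96 in TBC1D4-deficient arrays and 1.87 to 2.09 in wild-type arrays, below that percentile. The summed intensity of the list was 47.2 to 53.0 in TBC1D4-deficient arrays and 48.5 to 52.9 in wild-type arrays.

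The other 4 transporters of this kind carry urate, myo-inositol or hexoses. Slc2a9 (GLUT9, probe set 10529671, chromosome 5), a urate transporter, had a slope of -0.099 (-0.29 to 0.096). Slc2a12 (GLUT12, probe set 10362104, chromosome 10), a hexose transporter, read 6.66, 6.50, 6.73 and 6.46 in TBC1D4-deficient replicates 1 to 4 and 6.61, 6.60, 6.48 and 6.59 in wild-type replicates 1 to 4. The genotypes overlapped, and its slope was -0.081 (-0.25 to 0.085). Slc2a8 (GLUT8, probe set 10481759, chromosome 2), which resides mostly on internal membranes, read 4.98, 4.94, 5.10 and 4.96 in TBC1D4-deficient replicates 1 to 4 and 4.91, 4.89, 5.07 and 4.76 in wild-type replicates 1 to 4. Replicate 3 was the highest within each genotype, and the slope was 0.0077 (-0.17 to 0.18). Slc2a13 (HMIT, probe set 10431711, chromosome 15), a proton-coupled carrier of myo-inositol, read 3.95, 3.63, 3.81 and 3.91 in TBC1D4-deficient replicates 1 to 4 and 3.60, 3.88, 3.90 and 3.86 in wild-type replicates 1 to 4. Wild-type replicate 1 was the lowest of the 8 and TBC1D4-deficient replicate 1 the highest, and the slope was -0.0078 (-0.22 to 0.21). The range over the 8 arrays was 1.47-fold for Slc2a9 and 1.21-fold to 1.27-fold for the other 3.

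Among other genes of hexose handling, some moved with the proximal tubule markers and others stayed near a slope of 0. Of 19 further proximal tubule markers, 16 had a slope above 0 past the threshold, with a median slope of 0.98, and of 12 DCT markers 0 did, with slopes of -0.12 to 0.13. Of 11 measured genes of glucose phosphorylation, glucose release and fructose handling, 4 passed, all above 0. Fbp1, an enzyme of gluconeogenesis, had a slope of 1.42 (0.95 to 1.89), Khk, which phosphorylates fructose, of 0.64 (0.43 to 0.85), Slc37a4, which feeds glucose-6-phosphate to its phosphatase, of 0.59 (0.38 to 0.80), and Tkfc, the next enzyme of fructose use, of 0.54 (0.40 to 0.67), with limma adjusted p-values of 0.0013 to 0.0143. Pck1 and G6pc, further enzymes of gluconeogenesis, had slopes of 1.09 (0.19 to 1.98) and 0.73 (0.064 to 1.40) that did not pass (limma adjusted p = 0.579 and 0.67). Hk1, the common hexokinase, had a slope of -0.026 (-0.17 to 0.12), and G6pc3, the widely expressed glucose-6-phosphatase, of -0.0062 (-0.15 to 0.13).

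Of 10 other measured members of the GLUT and SGLT families, 2 passed, both of the SGLT family. Slc5a8, a monocarboxylate transporter, had a slope of 1.10 (0.87 to 1.33, limma adjusted p = 0.000459), and Slc5a11, a carrier of myo-inositol, of 0.45 (0.27 to 0.64, limma adjusted p = 0.0289). Slc5a3, another myo-inositol carrier, had a slope of -0.046 (-0.21 to 0.12). Slc2a10, Slc5a4a and Slc5a4b averaged below the 95th percentile of the olfactory receptor probe sets. Of 14 partners and regulators of glucose transport, 1 passed. It was Hnf4a, a transcription factor that also stands on the proximal tubule list, at 1.16 (0.85 to 1.47, limma adjusted p = 0.0019). Pdzk1ip1 (MAP17), an accessory protein of SGLT2, had a slope of 0.15 (0.0079 to 0.30, limma adjusted p = 0.702), below the interval of Slc5a2.

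**Figure D2:**
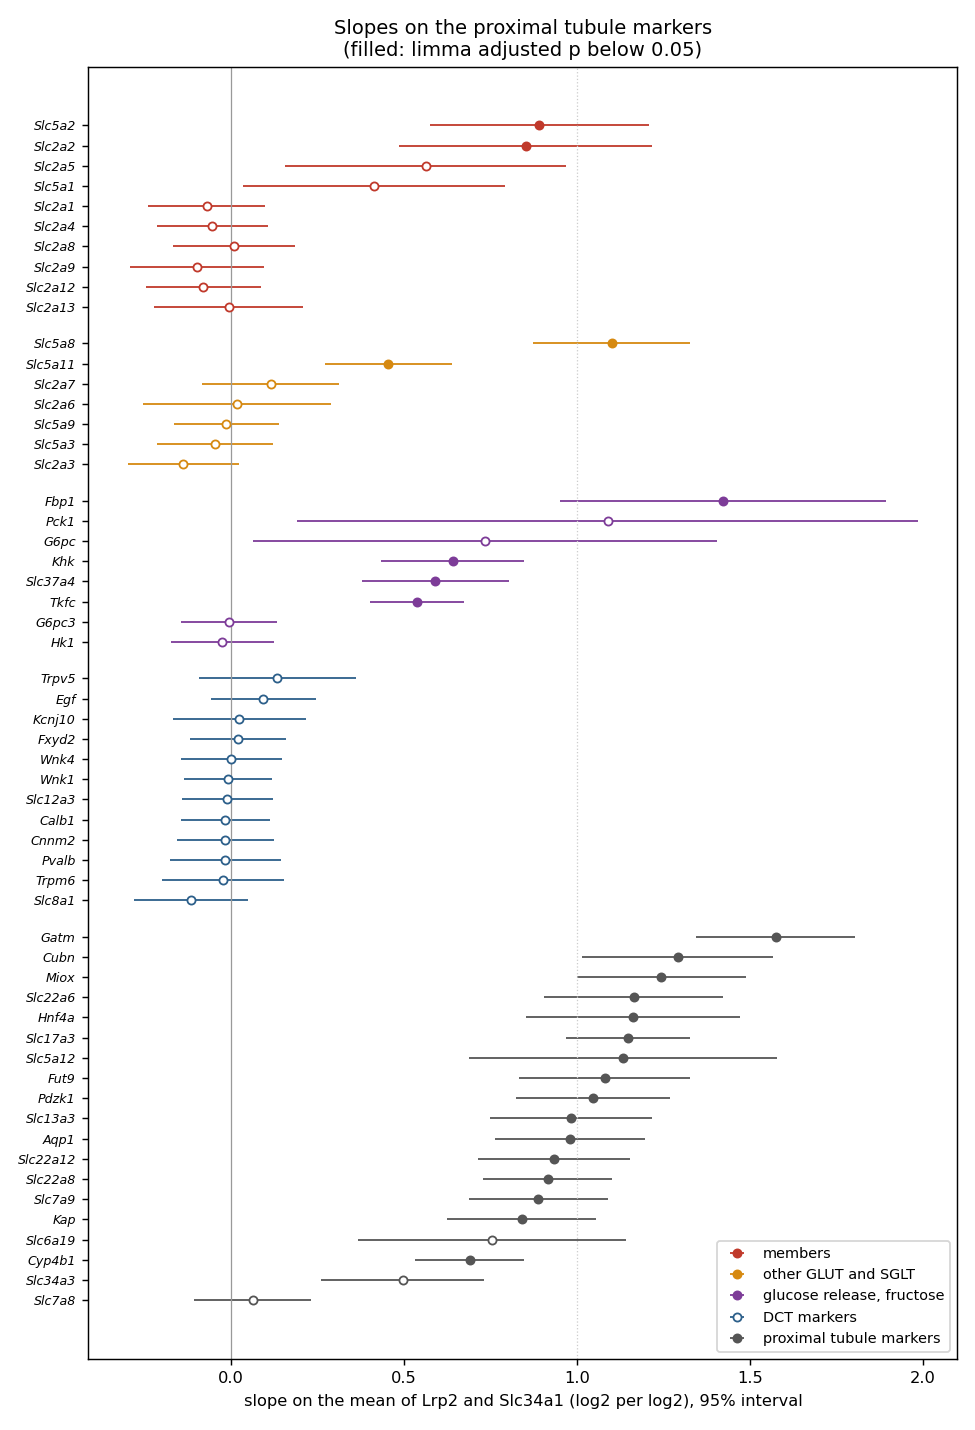
Slope of each gene on the mean of Lrp2 and Slc34a1 (horizontal axis, log2 per log2, with 95% intervals), for the 10 transporters, for genes of 2 further hexose lists above the level of olfactory receptor probe sets, for 12 DCT markers and for 19 proximal tubule markers. Filled points passed the threshold. Slc5a2 and Slc2a2 lie among the proximal tubule markers. Slc2a1, Slc2a4, Slc2a8, Slc2a9, Slc2a12 and Slc2a13 lie near 0, as do the DCT markers. The median slope over all probe sets with a symbol, which is not drawn, was -0.0035.

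Between genotypes, none of the 10 transporters passed the threshold. Called were 0 of 10, beside 0.00434% of all probe sets, and an unadjusted p below 0.05 was found for 1 of 10 (Slc2a9), beside 2.9% of all. The groups overlapped in all 10, whereas they did not overlap in 1.85% of all probe sets. The difference, TBC1D4-deficient minus wild-type, lay above 0 for 5 and below 0 for 5, with a median of -0.048 on the log2 scale against -0.0017 over all probe sets.

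Slc2a9 had the difference farthest above 0 of the 10. Its log2 intensities were 6.32, 6.37, 6.42 and 6.19 in TBC1D4-deficient replicates 1 to 4 and 6.21, 6.19, 5.87 and 6.10 in wild-type replicates 1 to 4. TBC1D4-deficient replicates 1 to 3 lay above all wild-type arrays, and replicate 4 lay among them. The log2 difference was 0.24 (95% interval 0.038 to 0.43, limma adjusted p = 0.9999), and 0.21 (0.0022 to 0.41) with the mean of Lrp2 and Slc34a1 in the model. It ran from 0.16 to 0.28 over 22 alternative settings and passed in 0 of them.

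The intervals of the genotype difference were narrow for the 6 transporters with slopes near 0. Slc2a4 averaged 7.71 ± 0.063 in TBC1D4-deficient arrays and 7.71 ± 0.11 in wild-type arrays (SD, n = 4 each), with a difference of 0.0047 (-0.15 to 0.16). Slc2a1 averaged 9.07 ± 0.093 in TBC1D4-deficient arrays and 9.17 ± 0.11 in wild-type arrays, with a difference of -0.10 (-0.27 to 0.064). The differences were 0.088 (-0.078 to 0.26) for Slc2a8, 0.016 (-0.15 to 0.18) for Slc2a12 and 0.014 (-0.19 to 0.22) for Slc2a13. For these 5 and Slc2a9 the 95% interval lay inside 1.5-fold, as it did for 97.4% of all probe sets.

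The 4 transporters with the higher slopes had wider intervals. These reached beyond a 1.5-fold fall for all 4 and beyond a 1.5-fold rise for Slc2a2. A gene with a high slope varies within each genotype, which widens its interval, so this contrast is a description and no test. Slc5a2 averaged 4.95 ± 0.63 in TBC1D4-deficient arrays and 5.28 ± 0.49 in wild-type arrays (SD, n = 4 each), with a difference of -0.33 (-1.02 to 0.36). That difference rested on TBC1D4-deficient replicate 1, without which it was -0.027. Arrays 5 to 8 alone gave 0.073 and arrays 9 to 12 alone gave -0.73. The difference was -0.10 (-0.79 to 0.59) for Slc2a2, -0.29 (-0.85 to 0.26) for Slc2a5 and -0.12 (-0.59 to 0.34) for Slc5a1. All 4 lay below 0. For Slc2a5 the difference was -0.13 without wild-type replicate 3 and -0.097 without wild-type replicate 4. The differences of the 19 further proximal tubule markers lay on the same side, 19 of 19 below 0, beside 50.9% of all probe sets. The median was -0.27, with 0 of 19 past the threshold (limma), and all 19 genes lay above the level of olfactory receptor probe sets. Their summed intensity was 1544 to 3415 in TBC1D4-deficient arrays and 2100 to 4354 in wild-type arrays. Their mean, each gene set to 0 over the arrays, was lowest at -0.92 for TBC1D4-deficient replicate 1. The other arrays of that genotype read 0.25, 0.044 and 0.061, inside the wild-type span of -0.46 to 0.68. Of these genes 16 followed Lrp2 and Slc34a1, so the 19 differences are not separate tests. The mean of 9 endothelial markers, each gene again set to 0, was -0.39 to -0.011 in TBC1D4-deficient arrays and 0.049 to 0.22 in wild-type arrays, with 9 of 9 differences below 0 and 0 of 9 past the threshold (limma). The part of these cells in the transporter differences was not tested. With the mean of Lrp2 and Slc34a1 as a covariate the differences were -0.057 (-0.39 to 0.27) for Slc5a2, 0.16 (-0.22 to 0.54) for Slc2a2, -0.12 (-0.55 to 0.30) for Slc2a5 and 0.0041 (-0.39 to 0.40) for Slc5a1, and all 4 intervals lay inside 1.5-fold.

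**Figure D3:**
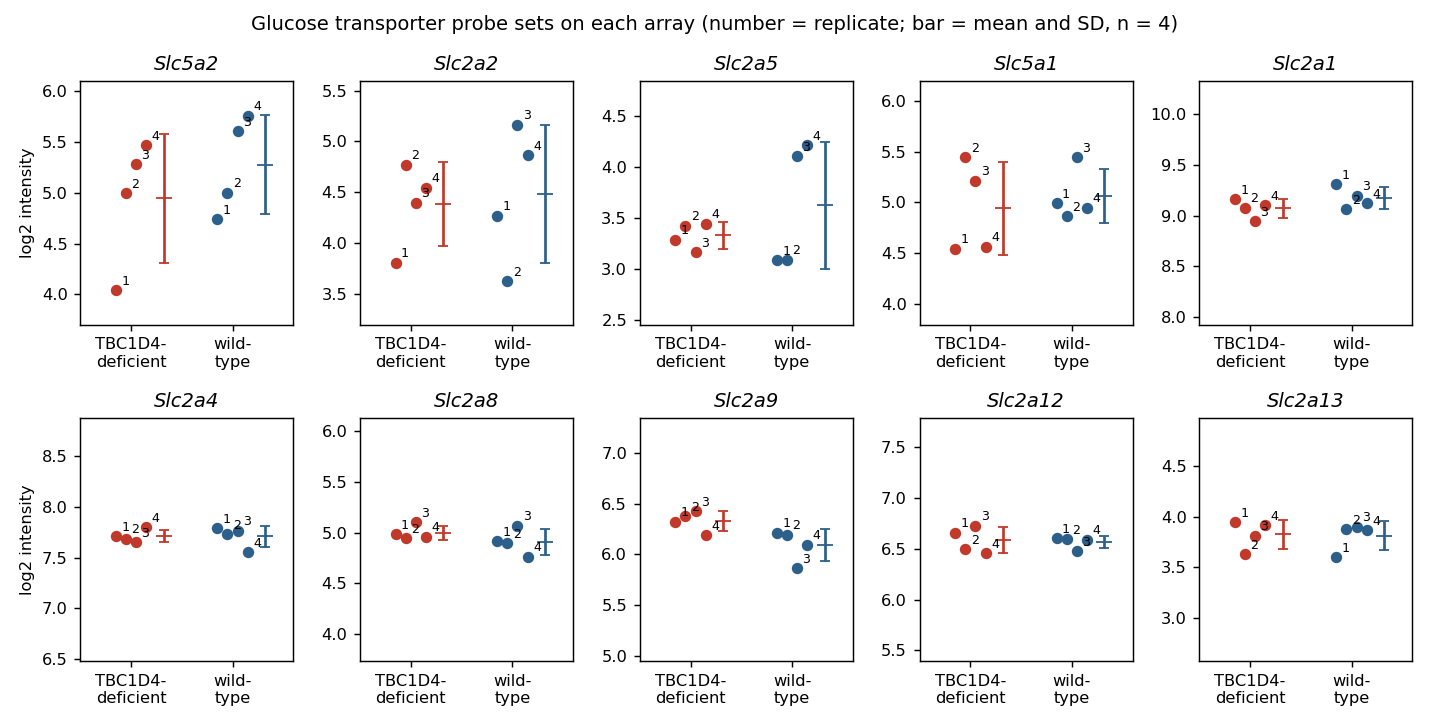
Log2 intensity of the 10 transporters on each array (vertical axis, each panel spanning the same number of log2 units), TBC1D4-deficient on the left and wild-type on the right. Numbers are replicates, and bars give the mean and SD of 4 arrays. The genotypes overlap in every panel, and the spread within a genotype is wide for Slc5a2 and Slc2a2 and narrow for Slc2a4.

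**Figure D4:**
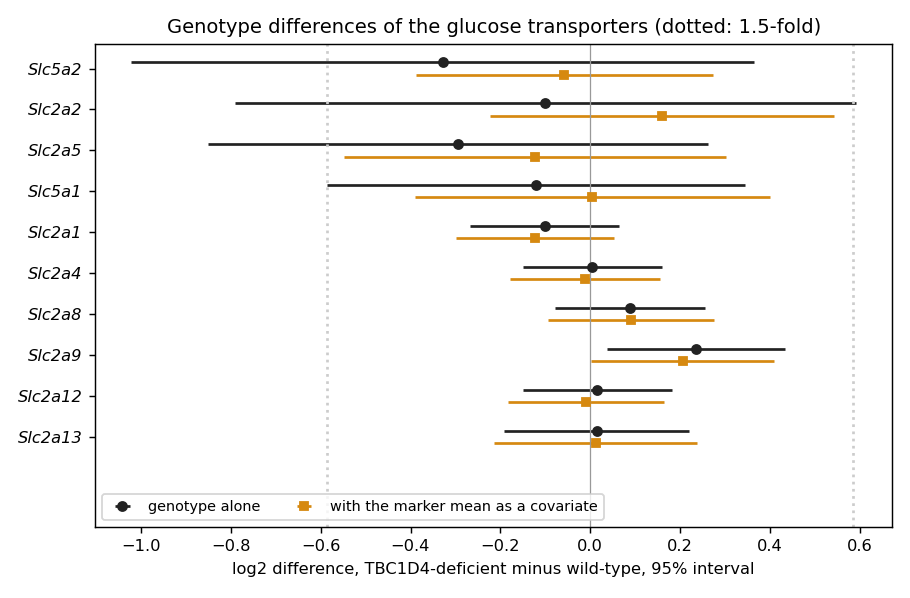
Log2 difference between genotypes, TBC1D4-deficient minus wild-type (horizontal axis, with 95% intervals), from the genotype alone (circles) and with the mean of Lrp2 and Slc34a1 as a covariate (squares). Dotted lines mark 1.5-fold. The interval of Slc2a9 alone lies above 0, and those of Slc5a2, Slc2a2, Slc2a5 and Slc5a1 reach beyond 1.5-fold without the covariate.

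Likeness of pattern was measured as Pearson's r over the 8 arrays, among 12277 other genes above the level of olfactory receptor probe sets. The genes most like Slc5a2 were Tmem176b (r = 0.98), Kap (0.977), a kidney androgen-regulated protein on the proximal tubule list, and Ugt2b38 (0.976). For Slc2a4 they were Disc1 (0.967), Efna4 (0.944) and Txndc11 (0.933), and for Slc2a1 Clcn6 (0.97), Zfp781 (0.969) and Mtch2 (0.96). For Slc2a9 they were Atad2b (0.952), Dtd1 (0.934) and Rgmb (0.933), and for Slc2a12 Kdm7a (0.95), Cpsf6 (0.937) and Igflr1 (0.935). These values are the highest of a search over 12277 genes with 8 arrays and are given as a description.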

How the data were processed

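Per the labels, cDNA made from 100 ng of RNA per sample was biotin-labelled and hybridised to 1 array. The notes of the submitters name Affymetrix Power Tools, while no source used here states its version, summarisation or normalization. The authors deposited linear intensity values (28371 probe sets, array medians of 8.41 to 9.03), which were taken to log2 here with no pseudocount. Were the arrays forced to equal distributions, a shift common to most genes could not be seen. The number of arrays, 4 per genotype, limits the precision.

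Samples were grouped by title. Per gene the probe set of 1 symbol with the highest mean was used. Genotype, and the slope with genotype in the model, were tested with limma 3.58.1 in R 4.3.3 over 23039 probe sets with a symbol (Benjamini-Hochberg, threshold 0.05, 2-sided), after a check on simulated data. The transporters and lists were chosen with earlier results of these data known. Named were the 10 transporters, Tbc1d4, the markers, list genes (first those with the smallest genotype p or largest slope) and the 3 genes most like each of 5 transporters. Acta1, Adipoq, Ckm, Cldn10, Fabp4, Hk1, G6pc3, Slc37a4, Slc5a3, Slc7a13, Tkfc and Umod were named after their values were seen. So were Cldn16, Kcnj1, Nos1, Ptger3, Slc12a1, Slc22a7 and Slc22a19. The TATA and GC boxes, the interaction, the other marker lists and the slopes within subsets of arrays were likewise added later. Alternatives covered the probe sets tested, normalization, variance model, covariates, markers and arrays left out.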

Additional observations from a re-analysis of the deposited data

Results flagged for a closer look

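Of 20 groups of 4 arrays (10 transporters in 2 genotypes), 2 held an array far from the other 3, where chance gives about 1 in 20. Slc2a12 stood at 6.48 in wild-type replicate 3, against 6.59 to 6.61 in the other wild-type arrays, and within the TBC1D4-deficient range of 6.46 to 6.73. Slc2a13 stood at 3.60 in wild-type replicate 1, against 3.86 to 3.90 in the other wild-type arrays, and below the TBC1D4-deficient range of 3.63 to 3.95. The cause was not tested.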

How the results depend on the processing

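In 22 alternative settings 0 transporters and 1 probe set were called by genotype. Slopes of Slc5a2, Slc2a2, Slc2a5 and Slc5a1 stayed above 0 in all 29 settings, but the number of transporters called, 2, was 1 with the identifier range as a covariate, repeated quantile normalization, all probe sets, Slc34a1 alone, the intercalated cell mean as a second covariate or without the 2 arrays farthest from the median marker mean, and 0 with log2(value + 16), within arrays 5 to 8 or within TBC1D4-deficient arrays. It was 1 to 2 on leaving out each array, and 2 only without wild-type replicate 2. The genes behind these counts changed. Without TBC1D4-deficient replicate 1, and without the 2 farthest arrays, the 1 called was Slc2a5, and neither Slc5a2 nor Slc2a2 passed. Within wild-type arrays Slc2a5 was 1 of the 2 called. The probe sets called above 0, 261, were 131 with log2(value + 16), 74 within arrays 5 to 8, 65 within TBC1D4-deficient arrays, 116 without the 2 farthest arrays, and 169 (without wild-type replicate 1) to 229 on leaving out each array. With the replicate number as a block, 0 transporters and 25 probe sets were called on the slope, Slc2a1 turned to 0.13 and Slc2a8 to -0.045. Deviations of same-numbered arrays correlated at 0.459, -0.233, 6.15e-05 and 0.0728, and not every array correlated best with its own number, so the numbers were not taken as pairs and the block is not read as a weaker effect. The cause was not tested for any of these.

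Some values that were not called changed sign. The sample descriptions hold a second number of unstated meaning, whose lower range holds 3 TBC1D4-deficient arrays and 1 wild-type array and whose upper range holds 1 TBC1D4-deficient array and 3 wild-type arrays, so this identifier range is partly confounded with genotype. Genotype differences changed sign with it as a covariate (Slc2a2 0.32, Slc5a1 0.11, Slc2a12 -0.022, Slc2a13 -0.073, Slc2a4 -0.011), with the marker covariate (Slc2a2 0.16, Slc5a1 0.0041, Slc2a12 -0.0084, Slc2a4 -0.012), with array weights (Slc2a13 -0.0032, Slc2a4 -0.0063), within arrays 5 to 8 (Slc5a2 0.073, Slc2a2 0.076, Slc2a13 -0.027, Slc2a4 -0.019) and within 9 to 12 (Slc5a1 0.024, Slc2a12 -0.021). Leaving out each array gave -0.51 to -0.027 for Slc5a2, -0.47 to -0.097 for Slc2a5, -0.39 to 0.13 for Slc2a2, -0.29 to 0.012 for Slc5a1, -0.031 to 0.059 for Slc2a12, -0.056 to 0.080 for Slc2a13 and -0.047 to 0.031 for Slc2a4. The slope of Slc2a13 turned to 0.091 with the identifier range, 0.039 with array weights, 0.011 on Slc34a1 alone, 0.0090 on the longer list, 0.029 within arrays 5 to 8, 0.17 within wild-type arrays, 0.090 without the 2 farthest arrays and 0.051 with the second covariate. That of Slc2a8 turned to -0.019 with the number set, -0.0031 with quantile normalization, -0.014 with median centring, -0.018 without the genotype term, -0.10 within arrays 9 to 12, -0.15 without the 2 farthest arrays and -0.0099 with the second covariate. Slc2a1 stood at 0.17 and Slc2a4 at 0.034 within arrays 5 to 8, and Slc2a9 at 0.024 within TBC1D4-deficient arrays. Leaving out each array gave slopes of -0.12 to 0.12 for Slc2a13 and -0.054 to 0.065 for Slc2a8. No other probe set of 1 symbol exists for the 10 genes, so that alternative gave no value. Dim probe sets (Slc2a5, Slc2a13) can understate changes.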
